A study of Mus musculus with 4 samples.

Results

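The genes described here were 44 ribosome biogenesis genes and Myc, chosen by symbol, and all 45 were found among the 28692 genes listed for each of the 4 pools of hematopoietic stem and progenitor cells (HSPCs). By role, the list held Myc itself, 3 RNA polymerase I subunits, 3 nucleolar phosphoproteins and chaperones, 3 core proteins of box C/D small nucleolar ribonucleoproteins (snoRNPs), 5 proteins of box H/ACA snoRNPs, 11 factors of small (40S) subunit processing, 16 factors of large (60S) subunit assembly and 3 other nucleolar factors. Ribosomes are built in the nucleolus, where RNA polymerase I transcribes the precursor rRNA, snoRNPs modify it and successive assembly factors cut, fold and export the subunits. Myc is a transcription factor that binds E-box DNA words and is known to drive growth genes, among them many nucleolar genes, and hematopoietic stem cells are known for low protein synthesis and for leaving quiescence as biosynthesis starts.

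The study profiled single HSPCs from young and aged mice to ask how age acts on subsets of these cells. Bone marrow of male C57BL/6-CD45.2 mice was lineage depleted and FACS sorted as Lin-, Sca1+, cKit+, Flt3- cells, and each library came from a pool of mice. The young pools came from 2 mice (young A) and 3 mice (young B) aged 2 to 3 months, and the aged pools from 3 mice (aged A) and 2 mice (aged B) aged 17 to 18 months. The A pools were captured and sequenced at one facility (HalioDX) and the B pools at another (TGML), so each age had 1 pool per platform. Tests between ages measured the spread between pools that was left after the platform block. Tests between cell classes measured how far the class difference within a pool varied from pool to pool. The paper gives more reads per cell for young B and aged A than for young A and aged B. Ages were taken from the titles and source names, and the free-text descriptions of young B and aged A name the other age.

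After removal of barcodes outside 2 standard deviations of the log UMI count (unique molecular identifiers, i.e. counted transcript molecules), 14915 of 15566 barcodes were kept, 2244 to 5189 per pool, with a median of 5674 to 6719 UMIs per cell. Pairs of pools shared 8 to 26 barcodes. The members took 0.661% of UMIs in young A, 0.695% in young B, 0.575% in aged A and 0.657% in aged B, or a median of 37, 40, 30 and 44 member UMIs per cell. The 10 immediate-early genes of a list kept for reference (Fos, Jun, Egr1 and others) summed to 1156 CPM (UMIs of a gene relative to the total of the pool, on the usual CPM scale) in young A, 411 in young B, 4098 in aged A and 925 in aged B, and the 8 plasma cell markers to 650, 546, 5075 and 2348 CPM, so that aged A was the highest pool in both. The 10 stem cell markers summed to 780, 866, 1565 and 1508 CPM in the same order, as markers of the sorted population.

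RefSeq (GRCm38.p6) gave a promoter window, 250 bases before to 50 after the start site, for 39 of the 45 members, and none was at hand for Myc, Npm1, Fbl, Rrp12, Bop1 and Gnl2. The E-box word CACGTG, which reads the same on both strands, lay in 6 of the 39 windows (15.4%), against 8.09% of 27025 genes with a window and 11.6% of the 10029 of these that were tested between ages. The related word CACGCG, or CGCGTG on the other strand, lay in 13 windows (33.3%), against 10.5% of all windows and 19.8% of those of tested genes. CACGTG was found in Mybbp1a, Nop2, Pes1, Tsr1, Utp20 and Wdr43, and 17 members held either word. CACGCG and CGCGTG can overlap each other, as they did in Mybbp1a, and neither can overlap CACGTG. A match describes letters and not a bound site. The windows of 4 members are printed below, all from the 17 that held a word. Nop56, Nop58 and Ncl, which also differed between cell classes, held neither word. The 4 windows read 5′ to 3′ on the strand of the gene, with these words in capitals: Nolc1 (chr19:46075597-46075896, plus strand), Bysl (chr17:47611443-47611742, minus strand), Lyar (chr5:38220232-38220531, plus strand) and Nop2 (chr6:125131633-125131932, plus strand).
Nolc1: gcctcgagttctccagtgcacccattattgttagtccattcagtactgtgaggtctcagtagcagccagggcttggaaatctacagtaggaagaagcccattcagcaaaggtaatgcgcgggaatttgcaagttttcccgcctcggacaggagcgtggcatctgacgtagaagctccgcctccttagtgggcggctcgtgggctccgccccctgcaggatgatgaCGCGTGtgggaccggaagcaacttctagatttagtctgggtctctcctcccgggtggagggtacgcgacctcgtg
Bysl: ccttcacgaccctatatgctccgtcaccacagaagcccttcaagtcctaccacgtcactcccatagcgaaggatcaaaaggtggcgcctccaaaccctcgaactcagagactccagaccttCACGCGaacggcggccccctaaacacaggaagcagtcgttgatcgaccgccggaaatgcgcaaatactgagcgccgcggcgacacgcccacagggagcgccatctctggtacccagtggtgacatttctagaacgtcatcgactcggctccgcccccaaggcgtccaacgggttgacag
Lyar: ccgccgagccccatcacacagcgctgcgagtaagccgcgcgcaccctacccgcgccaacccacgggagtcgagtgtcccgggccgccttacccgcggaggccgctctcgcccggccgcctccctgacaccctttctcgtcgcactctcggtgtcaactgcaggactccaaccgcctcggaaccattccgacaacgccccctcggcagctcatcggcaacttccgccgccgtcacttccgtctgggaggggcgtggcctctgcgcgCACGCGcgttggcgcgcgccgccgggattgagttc
Nop2: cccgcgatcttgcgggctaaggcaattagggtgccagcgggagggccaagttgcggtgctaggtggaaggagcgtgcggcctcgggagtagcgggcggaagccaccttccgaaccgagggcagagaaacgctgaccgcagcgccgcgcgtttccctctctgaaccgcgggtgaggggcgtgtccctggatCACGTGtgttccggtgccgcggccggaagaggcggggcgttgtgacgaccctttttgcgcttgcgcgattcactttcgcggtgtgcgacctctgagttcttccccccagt
In Nolc1 the word CGCGTG began 25 bases before the start site, in Bysl CACGCG began 129 bases before it, in Lyar CACGCG began 15 bases after it, and in Nop2 CACGTG began 60 bases before it. In the GENCODE annotation of GRCm38, Nolc1 spans chr19:46075863-46085530, Bysl chr17:47599331-47611492, Lyar chr5:38220470-38234306 and Nop2 chr6:125131909-125144753, and all 4 are protein coding. Myc itself spans chr15:61985391-61990374 on the plus strand.

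All members were detected in every pool, the least covered with 91 UMIs in a pool, and all 45 passed the filter on low counts. Their levels, as CPM in the summed counts of a pool, averaged from 5.76 to 1758 over the pools, with a median of 67.2. These are counts of transcript 3′ ends with no length correction, and they are compared here between pools and cells for the same gene. Npm1 (nucleophosmin, a nucleolar histone and ribosome chaperone) was at 1802 CPM in young A, 1911 in young B, 1452 in aged A and 1866 in aged B, and Ncl (nucleolin, an RNA-binding phosphoprotein of the nucleolus) at 760, 738, 582 and 702 CPM. Aged A was the lowest pool for both. The members of highest mean level in the other groups, each a description of 3′ end counts, were Polr1c (92.5 CPM) and Polr1a (13.2) of RNA polymerase I, Fbl (315) and Nop56 (196) of box C/D snoRNPs, Nop10 (720) and Nhp2 (206) of box H/ACA snoRNPs, Nob1 (76.5) and Wdr43 (67.2) of 40S processing, Ebna1bp2 (131) and Gnl3 (127) of 60S assembly, and Lyar (109) and Ddx21 (60.9) of the other nucleolar factors. For 36 of the 45 members the highest pool was under 1.5 times the lowest, and for 41 under 2 times, with a median ratio of 1.29.

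**Figure D1:**
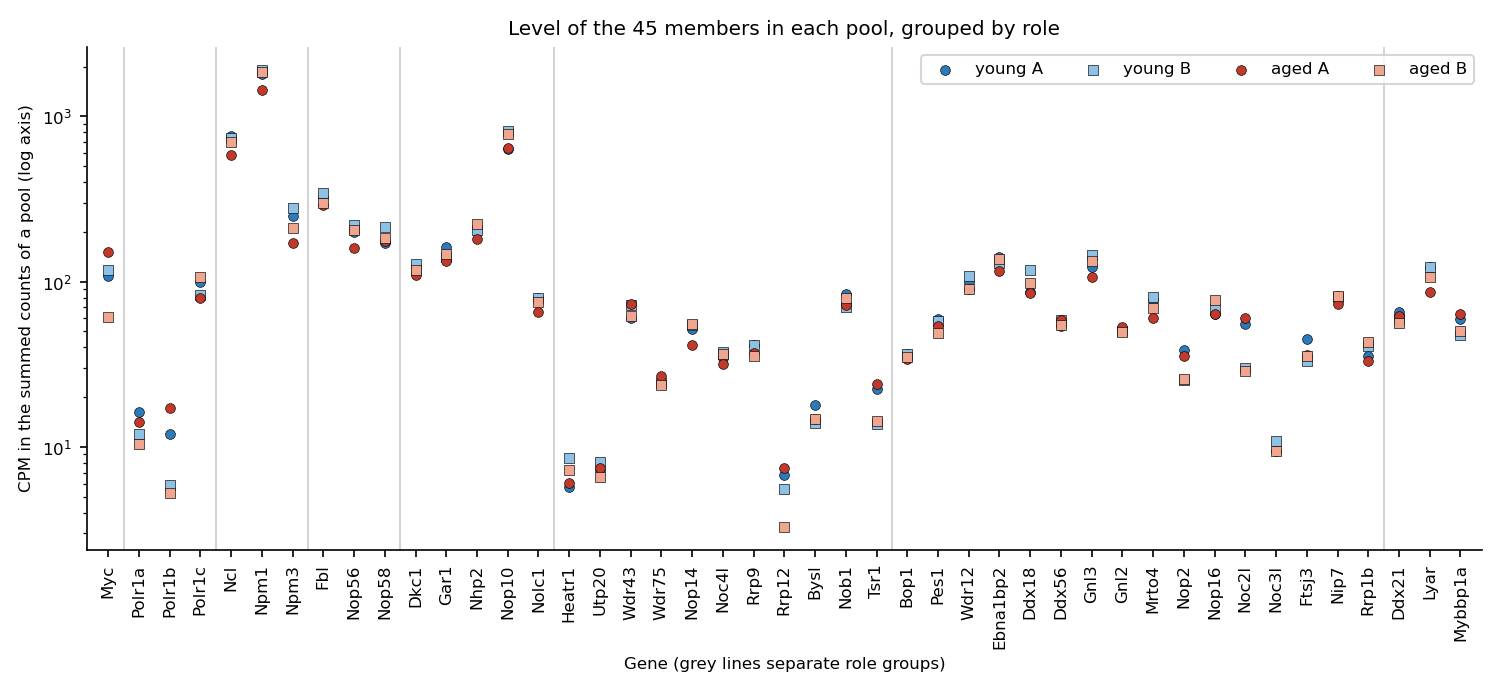
Level of each of the 45 members in the 4 pools, as CPM on a log axis, grouped by role along the horizontal axis, with circles for the A pools, squares for the B pools, blue for young and red for aged. Most members lie within 1.5 times between pools, Myc spreads from 61.0 (aged B) to 150 (aged A), and the A pools lie above the B pools for Polr1b, Nop2, Noc2l and Tsr1.

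Myc had the widest spread between pools after Polr1b. It was at 108 CPM in young A, 118 in young B, 150 in aged A and 61.0 in aged B, so that the highest and the lowest pool were both aged and differed 2.46-fold. Platform also separated single members. Polr1b (a catalytic subunit of RNA polymerase I) was at 12 CPM in young A, 5.91 in young B, 17.2 in aged A and 5.26 in aged B, and Noc2l (a 60S assembly factor) at 55.2, 30.1, 60.1 and 28.9 CPM. Both A pools lay above both B pools for 11 members, whereas 44.4% of all tested genes did so, and below them for 13 members, against 8.64% of all tested genes. Ages were therefore compared with the platform as a block.

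Between ages, no member passed the test in whole pools. The comparison asked whether HSPCs of aged mice differed from those of young mice, with edgeR's quasi-likelihood test over 13555 genes, of which 2.03% were called at a Benjamini-Hochberg adjusted p below 0.05 (1.6% higher, 0.428% lower). Of the members 0 of 45 were called, 1 had an unadjusted p below 0.05, and DESeq2 also called 0. The log2 fold change, aged over young, was below 0 for 40 of 45 members, against 48.5% of all tested genes, with a member median of -0.15 beside 0.01 over all genes. Scaled by library size alone, it was below 0 for 35 members with a median of -0.10. On the A platform alone 30 members were lower in the aged pool and on the B platform 31, with 11 lower on A and higher on B and 12 the reverse.

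Npm3 (a nucleoplasmin family chaperone) had the lowest unadjusted p. It was at 248 CPM in young A, 278 in young B, 172 in aged A and 213 in aged B, and both aged pools lay below both young pools. Its log2 fold change was -0.51 (SE 0.19, edgeR adjusted p = 0.30). The aged pools also did not overlap the young pools for Ncl, Fbl, Nolc1, Rrp9, Bop1, Pes1, Wdr12, Mrto4 and Lyar, which with Npm3 makes 10 members (22.2%) lower in both aged pools, against 13.6% of all tested genes. No member was above both young pools in both aged pools (18.1% of all tested genes were). Lyar, a nucleolar zinc finger protein, was at 123 CPM in young A, 122 in young B, 86.2 in aged A and 107 in aged B (log2 fold change -0.40, SE 0.19, edgeR adjusted p = 0.409). The age fits with a pool left out had no platform block. Without aged A the member median was 0.02, with 27 members above 0, and without aged B it was -0.38. Within a platform, the median log2 difference of the members, aged over young, was -0.13 on A and -0.07 on B. In these summed counts, fewer cells rich in member transcripts and fewer member transcripts per cell cannot be told apart. Beside the member median of -0.15, the median was -0.72 over 34 S phase markers (0 called), -0.76 over 39 G2/M markers (1 called lower), -0.75 over 11 erythroid markers (0 called), -0.81 over 8 neutrophil markers (0 called), -1.27 over 9 mast cell and basophil markers (1 called higher) and -0.15 over 78 ribosomal protein genes (0 called). Other sums rose with age. All 11 neutrophil markers summed to 1208 and 1309 CPM in young A and young B, and 1612 and 1453 in aged A and aged B. Megakaryocyte markers summed to 288 and 256 CPM against 364 and 429, and stem cell markers were higher in both aged pools. The part of these cells in the member levels was not tested.

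Myc went opposite ways on the 2 platforms. Its log2 difference, aged over young, was 0.47 on A and -0.94 on B, and the fit gave -0.29 (SE 0.33, edgeR adjusted p = 0.766). Aged A and young B, the pools with more reads per cell, lay above the other pools in Myc. Read depth, a platform difference in the age effect and differences between the groups of mice pooled cannot be told apart here. Of all members, Myc had the widest gap between platforms in whole pools and also within unmarked, cycling and stem marker high cells. Among cells thinned to 3000 UMIs each, a Myc UMI was seen in 23.7% of cells of young A (95% exact binomial interval 22.6 to 24.9), 24.7% of young B (22.9 to 26.6), 31.6% of aged A (30.0 to 33.3) and 16.3% of aged B (15.2 to 17.4), the same order as by CPM. These intervals cover counting error only. At full depth the shares were 41.0%, 45.8%, 48.4% and 32.1%, at median depths of 6075, 6339, 5796.5 and 6720.5 UMIs. No cell class of the sort is known to lack Myc, so that a background share from free RNA could not be given. The pool highest in Myc was also the pool highest in immediate-early transcripts. In cells with fewer than 4 immediate-early UMIs the Myc log2 fold change with age was -0.28 (SE 0.31, edgeR adjusted p = 0.833). That value joins both platforms and does not describe aged A alone. Of such cells a Myc UMI was seen in 753 of 3134 in young A, 500 of 1993 in young B, 335 of 1096 in aged A and 486 of 3028 in aged B. The part of immediate-early transcripts in the Myc level was not tested.

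**Figure D2:**
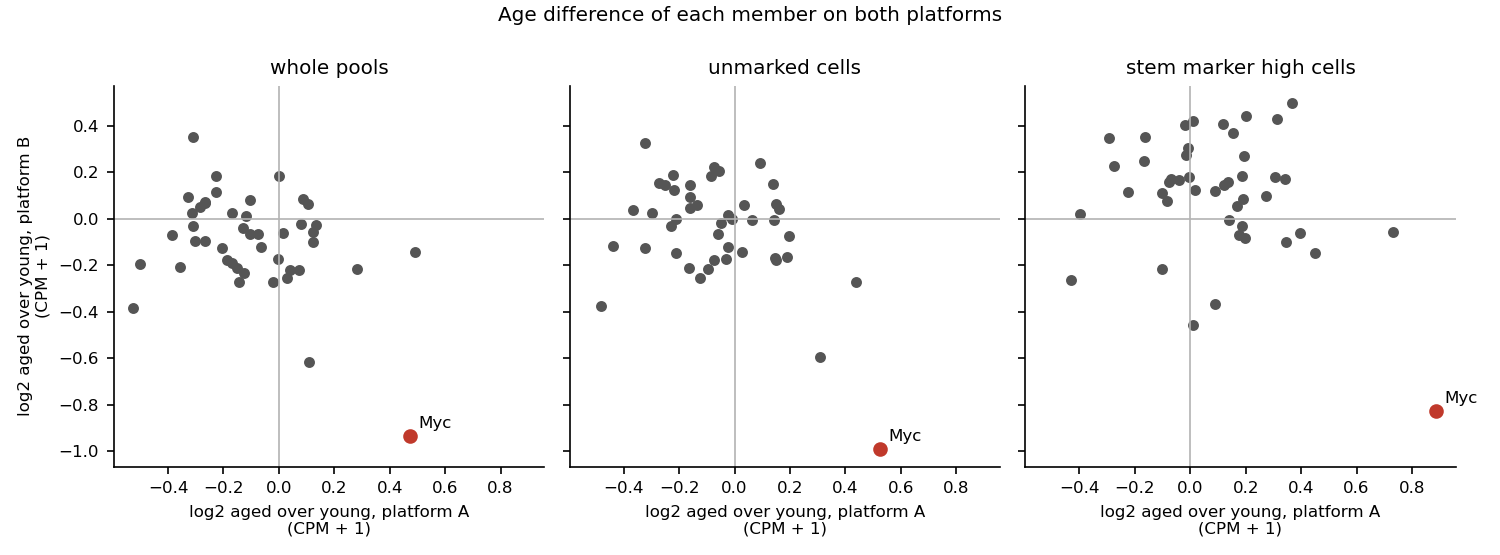
log2 difference between the aged and the young pool for each member on platform A (horizontal) and platform B (vertical), computed on CPM + 1, in whole pools, unmarked cells and stem marker high cells. Myc, in red, lies at 0.47 and -0.94 in whole pools and 0.89 and -0.83 in stem marker high cells, away from the other members in all 3 panels.

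To compare ages and cell states within marker classes, each cell was thinned to 3000 UMIs and classed by marker genes that include no member. The S phase class held cells with 10 or more UMIs of 34 S phase markers that were not over the G2/M cutoff. The G2/M class held those with 6 or more UMIs of 39 G2/M markers, whatever their S phase marker sum. Lineage classes were non-cycling cells over the cutoff of erythroid, megakaryocyte, neutrophil, mast cell and basophil, or lymphoid markers, and cells in none of these were called unmarked. Such classes are ranges of a marker sum and not types: 485 of 14685 cells lay at or 1 UMI below the S phase cutoff, 219 at or 1 below the G2/M cutoff, 59 for erythroid, 103 for megakaryocyte, 83 for neutrophil and 302 for lymphoid markers. The S phase class held 763, 288, 242 and 294 cells in young A, young B, aged A and aged B, the G2/M class 689, 200, 193 and 295, and the unmarked class 3477, 1596, 2609 and 3439. The S phase, G2/M and lineage comparisons share the unmarked cells as their reference.

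Within these classes no member passed the age test either. In unmarked cells 0 of 45 members were called by edgeR, 0 at an unadjusted p below 0.05 and 0 by DESeq2. The background was 3.37% called, 2.48% higher and 0.893% lower. The member median was -0.08 beside 0.01 over all genes. In the same cells 5 of 8 plasma cell markers were higher with age (median 4.62) and 5 of 10 immediate-early genes (median 1.62), and their part in the member values was not tested. In cycling cells, S phase and G2/M together, 0 were called by edgeR, 0 at an unadjusted p below 0.05 and 0 by DESeq2. The background was 0.757%, with 0.669% higher and 0.088% lower. The member median was -0.11 beside 0.0081 over all genes. Without aged A, and so without the platform block, the median in unmarked cells was 0.11. Without young B it was 0.02 in unmarked and 0.04 in cycling cells. Within platforms A and B, the median log2 difference was -0.07 and -0.0053 in unmarked cells, and 0.01 and -0.07 in cycling cells. In stem marker high cells, unmarked cells with 5 or more UMIs of 10 stem cell markers (3317 of all cells lay at or 1 below that cutoff), 0 were called by edgeR, 0 at an unadjusted p below 0.05 and 0 by DESeq2 (background 0.48%, with 0.404% higher and 0.0758% lower). There the fold changes were above 0 for 36 of 45 members, with a median of 0.08 beside 0.02 over all genes. Of all tested genes 46.9% were below 0. Both aged pools lay above both young pools for 11 members (14.2% of all tested genes did) and below them for Npm3 alone (12.3% of all tested genes). Nop58, a core protein of box C/D snoRNPs, was at 116 CPM in young A, 131 in young B, 143 in aged A and 149 in aged B in these cells, with a log2 fold change of 0.22 (SE 0.17, edgeR adjusted p = 0.754). Within a platform, the median log2 difference of the members there was 0.12 on A and 0.14 on B. Without the platform block, leaving out aged B gave a member median of -0.10 and leaving out young A -0.05. In cells with few immediate-early UMIs the member median was 0.02 with 24 members above 0. Whether the age difference itself differed between cycling and unmarked cells was tested by an interaction term, which called 0 of 45 members. At an unadjusted p below 0.05 there were 0, and DESeq2 called 0 (background 0.7%, with 0.51% higher and 0.189% lower). The member median was 0.02 beside 0.02 over all genes. For Myc the term was 0.13 (SE 0.13, edgeR adjusted p = 0.896).

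Across the cycle, the members rose widely in S phase. Against unmarked cells 38 of 45 members were higher in the S phase class and 0 lower by edgeR, with a member median of 0.48 on the log2 scale beside -0.07 over all 11758 genes tested, of which 50.4% were called, 23.3% higher and 27.1% lower. In 39 members the S phase class was higher in all 4 pools. Nolc1, a snoRNP chaperone of the nucleolus, was at 125, 134, 132 and 125 CPM in S phase cells of young A, young B, aged A and aged B, against 61.8, 61.0, 55.2 and 65.1 CPM in unmarked cells. Its lowest S phase pool thus lay above its highest unmarked pool (log2 fold change 1.10, SE 0.08, edgeR adjusted p = 4.62e-09).

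By role, transcripts of all snoRNP proteins of the list were higher. The genes of all 3 box C/D core proteins and all 5 box H/ACA proteins were called higher in S phase. Among them were Nop56 (0.99), Nop58 (0.93), Nhp2 (0.83), Gar1 (0.64), Dkc1 (the pseudouridine synthase dyskerin, 0.63), Nop10 (0.61) and Fbl (the rRNA methyltransferase fibrillarin, 0.55). Nop56 was at 297, 343, 301 and 353 CPM against 159, 182, 137 and 182 CPM in unmarked cells, with no overlap. Transcripts of the 3 nucleolar phosphoproteins and chaperones were higher as well, Ncl by 0.72, Npm3 by 0.49 and Npm1 by 0.39. So were those of the 3 other nucleolar factors, with Lyar at 1.0, the helicase Ddx21 at 0.51 and Mybbp1a at 0.46. Lyar was at 160, 176, 156 and 183 CPM in S phase cells against 94.2, 93.4, 69.3 and 86.0 in unmarked cells.

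Of the 11 factors of 40S processing 8 were higher, led by Bysl (bystin, 1.12), Rrp12 (1.04) and Utp20 (0.76), with Noc4l, Rrp9, Nop14, Wdr75 and Wdr43 between 0.47 and 0.33, while Heatr1 (0.31), Tsr1 (0.22) and Nob1 (the endonuclease of the last 18S rRNA cut, -0.05) were not called. Bysl was at 28.9, 21.9, 23.9 and 31.8 CPM against 13.9, 10.8, 13.1 and 12.4 CPM. Of the 16 factors of 60S assembly 14 were higher, led by Rrp1b (0.69), Nop2 (a 28S rRNA methyltransferase, 0.67), Mrto4 (0.67) and Gnl3 (nucleostemin, a nucleolar GTPase, 0.60). Bop1, Ftsj3, Wdr12, Noc2l, Ebna1bp2, Nip7, Ddx56, Nop16, Ddx18 and Pes1 lay between 0.58 and 0.24, and Gnl2 (0.20) and Noc3l (0.08) were not called. Of the 3 RNA polymerase I subunits 1 was called: Polr1a, a catalytic subunit, was higher (0.39, edgeR adjusted p = 0.0152), and Polr1b (0.33) and Polr1c (0.04) were not called.

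Myc itself was higher in S phase cells. It was at 142, 148, 202 and 85.6 CPM against 103, 117, 148 and 58.3 CPM in unmarked cells of the same pools, higher in 4 of 4 pools, although the groups overlapped because of the spread between pools (log2 fold change 0.48, SE 0.07, edgeR adjusted p = 2.21e-05). After thinning, 31.8%, 30.6%, 38.0% and 19.7% of S phase cells had a Myc UMI, against 22.4%, 24.2%, 31.0% and 15.8% of unmarked cells.

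Other genes of the pathway, from lists kept beside the members, gave a mixed picture. Of 100 other ribosome assembly factors 45 were higher in S phase and 4 lower (median 0.25), with Exosc8 (1.05), Pno1 (0.98) and Exosc2 (0.92) the farthest. Of 12 tested RNA polymerase I factors 5 were higher and 1 lower, among them Cd3eap (0.49) and Ubtf (the upstream binding factor of rRNA genes, 0.45). Of 25 other known Myc targets 23 were higher and 1 lower, led by Mthfd2 (2.47), Tfrc (1.60) and Srm (1.35), but within the Myc network Mycn (-1.02) and the Myc antagonist gene Mxd4 (-0.69) were lower and Mxd3 (2.54) was higher. The 78 cytosolic ribosomal protein genes did not rise with the assembly factors, as 1 was higher and 27 lower (median -0.09).

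The S phase class also differed in other marker lists. Higher were 8 of 10 tested erythroid, 6 of 6 mast cell and basophil and 7 of 8 neutrophil markers, and lower were 9 of 10 stem cell markers and 9 of 9 immediate-early genes. Without lineage-marked cells 37 members remained called higher, with a median of 0.44 and 0.36 for Myc, and in cells with few immediate-early UMIs 37 were called, with a median of 0.52. Over all genes 2522 of 11663 and 2753 of 10915 were called higher in these settings. S phase cells were also deeper, with medians of 8948, 9864.5, 8256 and 9647.5 UMIs against 5500, 5743.5, 5620 and 6330 in unmarked cells, and the fold changes are relative to each class's total.

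In the G2/M class the members were nearer to unmarked cells, and Myc was lower. Against unmarked cells edgeR called 19 members higher and 2 lower (median 0.18), where 52.4% of all genes were called, 26.7% higher and 25.7% lower. Lyar was at 169, 175, 152 and 179 CPM (log2 fold change 1.01, SE 0.07, edgeR adjusted p = 9.38e-08), followed by Nhp2 (0.58), Nolc1 (0.55) and Bysl (0.53). Also called higher were Ncl, Npm3, Nop56, Nop58, Mrto4, Dkc1, Noc4l, Nop10, Gar1, Npm1, Wdr12, Polr1c, Ebna1bp2, Mybbp1a and Fbl, between 0.47 and 0.18. The 2 lower were Myc, at 69.0, 73.8, 109 and 51.7 CPM (-0.44, SE 0.08, edgeR adjusted p = 0.00052), and Nob1 (-0.23). This count moved with the cells used: 15 were higher and 5 lower without lineage-marked cells (median 0.02), and 33 higher and 1 lower when no barcode was filtered, with Myc at -0.51 and -0.25. Of 11656 genes 2905 were higher and 2806 lower without lineage-marked cells. When no barcode was filtered 3477 of 11962 were higher and 3391 lower. Of the 78 ribosomal protein genes 2 were higher and 63 lower.

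The 2 cycling classes were then compared directly, a comparison added after the data had been seen. In G2/M against S phase 36 members were lower and 0 higher by edgeR (median -0.34), where 28.7% of all genes were called, 14% higher and 14.7% lower. Apart from Ddx18, each of the 36 was lower in all 4 pools. Myc showed the widest difference (-0.96, SE 0.07, edgeR adjusted p = 3.34e-13), followed by Rrp12 (-0.74), Gnl3 (-0.70), Rrp1b (-0.67), Rrp9 (-0.66) and Bysl (-0.64). In order of size, Nop2, Nolc1, Nop56, Polr1a, Noc2l, Nop58, Ddx21, Bop1, Tsr1, Wdr43, Fbl, Nip7, Nop16, Ftsj3, Gar1, Ddx18, Mrto4, Dkc1, Nop10, Nop14, Mybbp1a, Ebna1bp2, Ncl, Nhp2, Gnl2, Pes1, Ddx56, Wdr12, Nob1 and Npm1 lay between -0.58 and -0.13. A Myc UMI was found in 17.0%, 15.0%, 26.9% and 15.6% of thinned G2/M cells, below the S phase share in each pool. Not called were Lyar (-0.02), Npm3 (-0.05), Heatr1 (-0.02), Noc3l (-0.12), Noc4l (-0.15), Polr1b (-0.22), Wdr75 (-0.25), Utp20 (-0.44) and Polr1c (0.14). Ribosomal protein genes were lower in 72 of 78 cases, and 21 of 34 S phase markers were lower, which the classes were built on. G2/M cells still held a median of 9, 10, 12 and 8 S phase marker UMIs in young A, young B, aged A and aged B. S phase cells held 14, 14, 15 and 15, and the S phase cutoff was 10. With DESeq2 26 members were called, and 21 with no barcode filter. Over all genes these settings called 1299 of 10198 and 2748 of 10406.

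**Figure D3:**
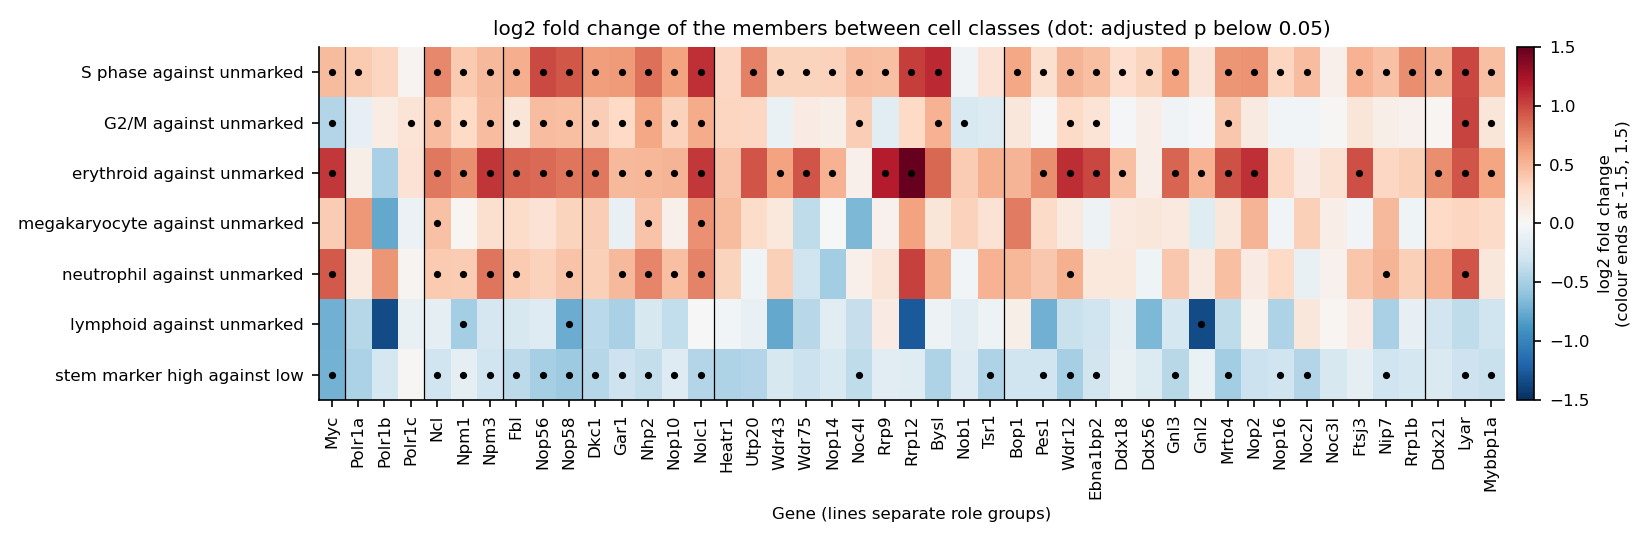
log2 fold change of each of the 45 members (columns, in role groups) in 7 comparisons between cell classes (rows), from blue (lower) to red (higher), with a dot where the edgeR adjusted p was below 0.05. The S phase and erythroid rows are mostly red with 38 and 29 dots, the row of stem marker high against low cells is mostly blue with 24, and Myc changes from red in S phase to blue in G2/M.

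Among the non-cycling lineage classes, the erythroid one had the highest member levels. It held 87, 30, 27 and 22 cells in young A, young B, aged A and aged B. Of the members 29 were higher and 0 lower than in unmarked cells (median 0.69 beside -0.12 over all genes), where 27.1% of genes were called, 10.7% higher and 16.4% lower. Rrp12 led (1.97, SE 0.44), but on only 9, 8, 4 and 2 UMIs in young A, young B, aged A and aged B. Then came Rrp9, a U3 snoRNP protein (1.18), Wdr12 (1.10) and Nop2 (1.10). Npm3 was at 416, 407, 439 and 453 CPM against 216, 253, 154 and 195 CPM, with no overlap and with 4 pools close together (1.08, SE 0.13, edgeR adjusted p = 9.81e-16). Myc was at 238, 183, 300 and 139 CPM, higher than in the unmarked cells of the same pool in 4 of 4 pools (1.07, SE 0.15, edgeR adjusted p = 1.36e-11).

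Other members called higher in erythroid-marked cells were Nolc1 (1.06), Ebna1bp2 (1.0), Ftsj3 (0.96), Mrto4 (0.95), Lyar (0.94), Wdr75 (0.94), Fbl and Gnl3 (0.87), Nop56 (0.85), Nop58 (0.80), Dkc1 and Ncl (0.79), Npm1 and Pes1 (0.70), and at 0.69 to 0.46 Ddx21, Wdr43, Mybbp1a, Nop14, Gnl2, Nop10, Nhp2, Gar1 and Ddx18. Not all of these were higher in every pool. In aged B Pes1 was at 43.8 CPM (6 UMIs) against 47.7 in unmarked cells. Gnl2 was at 38.1 CPM (10 UMIs) against 54.4 in young B, and Nhp2 at 144 against 161 in aged A. No RNA polymerase I subunit was called, at 0.22 (Polr1c), 0.09 (Polr1a) and -0.49 (Polr1b, on 5, 2, 1 and 1 UMIs). Of other lists, 31 of 100 assembly factors were higher and 1 lower, led by Nat10 (1.26), 21 of 25 other Myc targets were higher and 1 lower, and 13 of 78 ribosomal protein genes were higher and 3 lower. Of the S phase markers 13 of 34 were higher in these cells too, and 9 of 10 stem cell markers were lower. In cells with fewer than 4 S phase and 2 G2/M marker UMIs, 10 to 29 cells per pool, 10 members were called higher, with a median of 0.46 and Myc at 1.0 (SE 0.22, edgeR adjusted p = 0.000225). Over all genes the median there was -0.28, and of 9869 genes 238 were called higher and 824 lower.

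The neutrophil class (36, 20, 16 and 39 cells) had 13 members higher and 0 lower (background 14.3% called, 6.57% higher and 7.69% lower), with a median of 0.38 beside -0.18. Lyar led (0.95, SE 0.16), then Myc, at 255, 195, 167 and 109 CPM (0.92, SE 0.16, edgeR adjusted p = 1.58e-07), Npm3 (0.80), Nolc1 (0.75) and Nhp2 (0.73), and Wdr12, Nip7, Gar1, Nop10, Nop58, Ncl, Fbl and Npm1 lay between 0.54 and 0.38. Of the S phase markers 22 of 33 were higher here. Their part in the member levels was not tested, because young B and aged A had too few cells of low marker count. Leaving out any 1 pool left 7 to 9 members called. Over all genes these fits called 775 to 1491, against 1554 of 10894 with all pools. The class was not alike across pools. Its cells held a median of 26, 28, 29.5 and 13 neutrophil marker UMIs in young A, young B, aged A and aged B. The cutoff was 12. Of stem cell markers they held a median of 0, 0.5, 0 and 5 UMIs, where 5 is the stem marker high cutoff. The megakaryocyte class (25, 13, 19 and 28 cells) had 3 higher (background 7.27%, with 2.64% higher and 4.63% lower), namely Nolc1 (0.69), Ncl (0.44) and Nhp2 (0.43), and Myc was at 0.39 (SE 0.17, edgeR adjusted p = 0.191). Nolc1 rested on 15, 8, 8 and 48 UMIs, and in aged A it was at 56.5 CPM against 55.2 in unmarked cells. With any 1 pool left out Nolc1 ran from 0.28 to 0.78, Ncl from 0.32 to 0.55 and Nhp2 from 0.17 to 0.49. Ribosomal protein genes were lower there in 32 of 78 cases.

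The lymphoid class (29, 19, 21 and 13 cells) had a member median of -0.29, near the median of -0.22 over all genes. By edgeR 3 members were lower and 0 higher (background 4.71%, with 2.2% higher and 2.51% lower): Gnl2, a 60S GTPase (-1.34), Nop58 (-0.74) and Npm1 (-0.51). Gnl2 rested on 4, 3, 0 and 3 UMIs in the pools and Nop58 on 17, 11, 10 and 9. Myc was at 77.9, 81.1, 48.2 and 16.3 CPM (-0.72, SE 0.27, edgeR adjusted p = 0.112). DESeq2 called 0 members, and 228 of 10746 genes. When any 1 pool was left out, 0 to 1 members were called. Over all genes these fits called 307 to 384, against 506 of 10746 with all pools. The Myc value moved with the cells used, from -0.02 (edgeR adjusted p = 0.984) with a lower marker cutoff to -1.59 (edgeR adjusted p = 0.00998) in cells with few cycle marker UMIs. The scaling moved these values too, as the median over all genes was -0.39 by library size alone and -0.06 with DESeq2 size factors, by which 0 members were called. Members took a median of 15 and 12 of 3000 UMIs in the young pools and 6 and 6 in the aged pools. All 7 tested plasma cell markers were higher in this class (median 8.35), and their part in the member levels was not tested. With 2 cells in aged B the mast cell and basophil class was not tested.

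**Figure D4:**
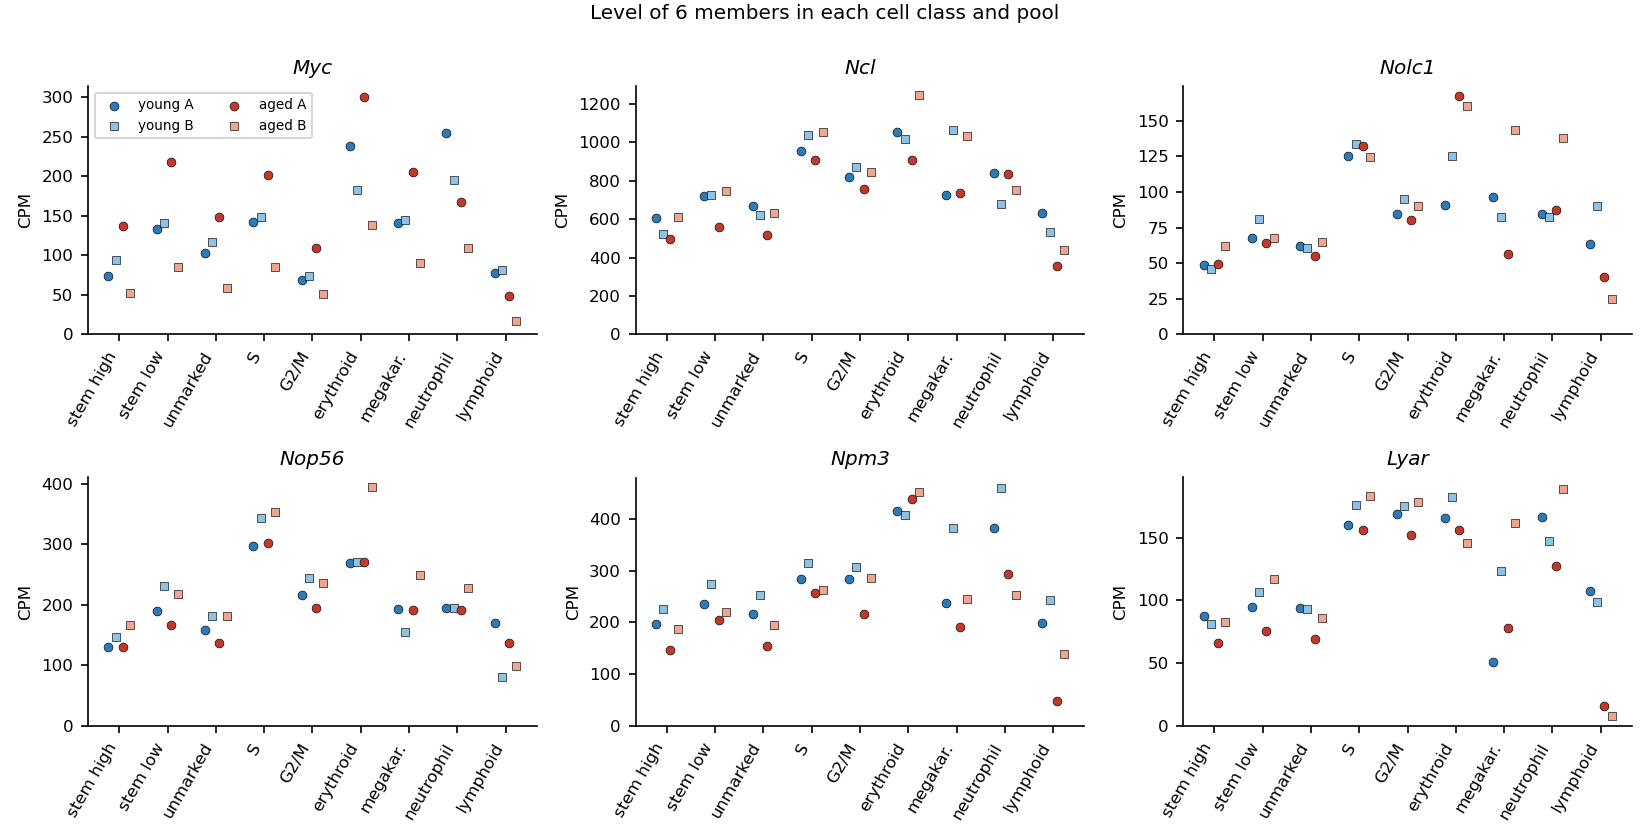
CPM of Myc, Ncl, Nolc1, Nop56, Npm3 and Lyar in the summed counts of 9 cell classes, 1 point per pool, with circles for A, squares for B, blue for young and red for aged, and axes from 0. S phase and erythroid-marked cells lie highest for most, Lyar is as high in G2/M as in S phase, and aged A lies above aged B for Myc in each class.

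Within unmarked cells, those rich in stem cell markers had lower member levels. Stem marker high cells were compared with unmarked cells of 0 or 1 stem marker UMIs, which were 793, 354, 130 and 242 cells against 999, 492, 1601 and 1969. Of the members 24 were lower and 0 higher by edgeR (median -0.30 beside 0.02), where 18% of all genes were called, 9.14% higher and 8.88% lower. Myc was at 74.0, 94.2, 138 and 52.6 CPM in stem marker high cells against 133, 140, 218 and 85.3 CPM, lower in 4 of 4 pools (-0.71, SE 0.07, edgeR adjusted p = 7.85e-08). Nop58 (-0.54), Mrto4 (-0.52), Wdr12 (-0.50), Nop56 (-0.49), Tsr1 (-0.46), Noc2l (-0.44), Nolc1 (-0.44), Dkc1 (-0.42), Gnl3 (-0.41), Fbl (-0.39), Noc4l (-0.39) and Nhp2 (-0.36) followed. Mybbp1a, Gar1, Lyar, Nop16, Pes1, Npm3, Ncl, Nip7, Ebna1bp2, Nop10 and Npm1 lay between -0.33 and -0.15, and no RNA polymerase I subunit was called.

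Here too the ribosomal protein genes went another way, with 27 of 78 higher and 2 lower. Mycn was higher in stem marker high cells (0.57) while Srm, the spermidine synthase gene and a known Myc target, was lower (-0.62). S phase markers were lower in 22 of 32 cases although both sides lay below the S phase cutoff. Markers of other cells differed as well: plasma cell markers were lower in 4 of 6 cases (median -3.10), neutrophil markers in 4 of 6 (-1.17, with 1 higher), erythroid markers in 3 of 7 (-0.31, with 1 higher) and red cell transcripts in 3 of 3 (-5.71), and their part in the lower member levels was not tested. In cells with fewer than 4 S phase and 2 G2/M marker UMIs 15 members were called lower (median -0.29) and Myc was at -0.51, and in cells with few immediate-early UMIs 21 were called. Over all genes 387 of 9478 and 768 of 9791 were called lower in these settings. Stem marker high cells were 19.3% and 22.4% of the cells of the young pools and 50.8% and 47.4% of those of the aged pools.

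**Figure D5:**
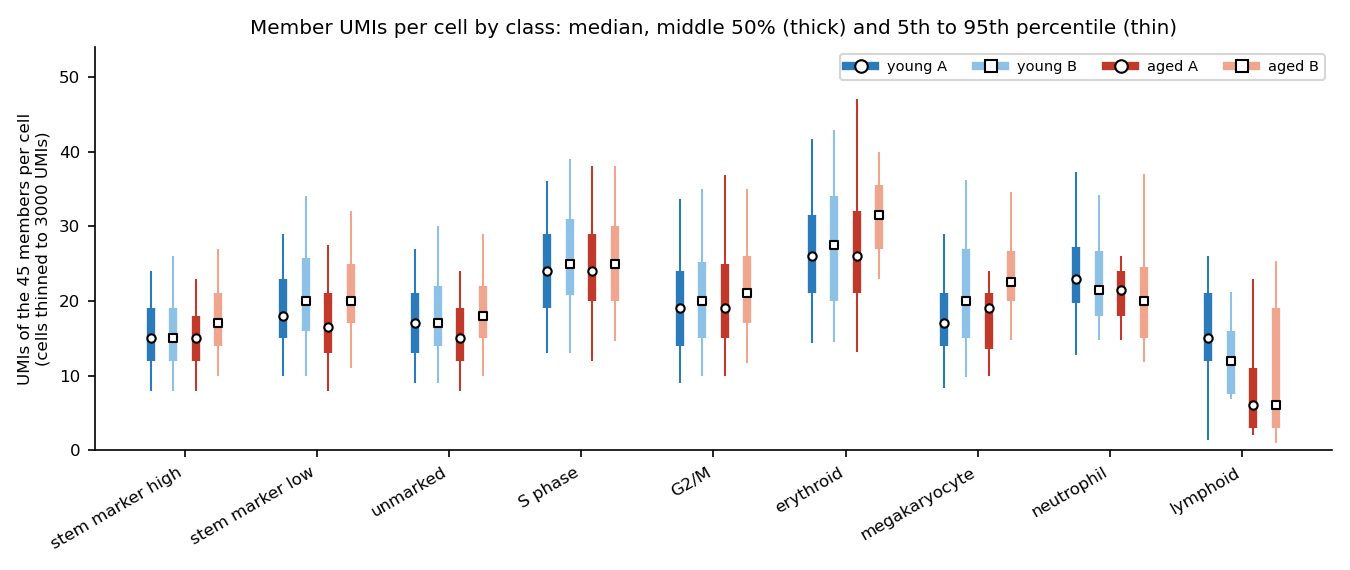
UMIs of the 45 members per cell, after each cell was thinned to 3000 UMIs, by cell class and pool, with the median (point), the middle 50% (thick line) and the 5th to 95th percentile (thin line). Medians were 15 to 17 in stem marker high cells, 24 to 25 in S phase cells, 19 to 21 in G2/M cells and 26 to 31.5 in erythroid-marked cells, and cells of neighbouring classes overlapped widely.

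Per cell, the order of the classes was similar in the 4 pools. After thinning, S phase cells held a median of 24, 25, 24 and 25 member UMIs, G2/M cells 19, 20, 19 and 21, and unmarked cells 17, 17, 15 and 18. Erythroid-marked cells held 26, 27.5, 26 and 31.5, and stem marker high cells 15, 15, 15 and 17.

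Finally, cells with a Myc UMI after thinning were compared with cells without one, Myc itself left out. Of the other 44 members 8 were higher and 0 lower by edgeR (median 0.16 beside -0.01), where 2.03% of all genes were called, 0.844% higher and 1.19% lower. These were Nop2 (0.41), Nolc1 (0.26), Dkc1 (0.20), Gnl3 (0.19), Nop56 (0.18), Nop58 (0.17), Nhp2 (0.16) and Fbl (0.14). Nolc1 was at 84.3, 84.3, 65.2 and 83.5 CPM in cells with a Myc UMI against 69.0, 64.4, 56.6 and 71.6 CPM, higher in 4 of 4 pools. S phase markers were higher in 8 of 34 cases and G2/M markers lower in 17 of 38, in the cells with a Myc UMI. Also lower there were 6 of 8 plasma cell markers (median -2.14), 5 of 6 mast cell and basophil markers (-1.47) and 4 of 4 red cell transcripts (-3.43), and the part of these lists in the member levels was not tested. DESeq2 called 1 member, and without young A 0 were called. Over all genes these settings called 62 of 11024 and 97 of 10744. Within unmarked cells alone edgeR called 0 of 44 members (background 1.15%, with 0.432% higher and 0.72% lower), with 11 at an unadjusted p below 0.05 and 0 by DESeq2, and the fold changes were above 0 for 41 members with a median of 0.09.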

How the data were processed

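Single-cell RNA-seq (10x Chromium 3′ v2) of 4 pools of sorted HSPCs was used. The authors aligned reads to GRCm38 (mm10) with Cell Ranger 2.2.0 and deposited UMI counts per gene and barcode; the annotation release was not given in the sources used here. Genes with near-identical copies, such as Npm1, may have lost reads to them. Barcodes outside 2 SD of the mean log UMI count per pool were left out, after the study's methods, with no doublet caller; 96 cells over the cutoffs of 2 lineage lists and 230 cells under 3000 UMIs were left out of the classes. Class cutoffs were set from marker sums after the files had been opened, without use of the members. The members, gene lists and markers were chosen with earlier results of these data known.

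Counts were summed per pool and class (at least 10 cells in each) and tested with edgeR 4.0.16 in R 4.3.3 (quasi-likelihood, TMM, filterByExpr, Benjamini-Hochberg over all tested genes at 0.05), with platform as a block between ages and pool as a block between classes. Classes of a pool are cells of the same mice; within a platform letter, deviations from the age means correlated at 0.58 over 13555 genes. Myc UMI comparisons used counts thinned to 3000 UMIs. By rule, the text names Myc everywhere, called members (up to 30 by size of change, here all), the 2 members of highest level in each role group, and up to 3 called genes of other lists. Nop58 and the others named for not overlapping between ages were named after their values were seen. Alternatives were DESeq2 1.42.0, no low-count filter, other scaling, no block, each pool left out, all barcodes, other cutoffs and thinning to 2000 UMIs; added after seeing the data were cells with few immediate-early UMIs, few cycle marker UMIs or no lineage marking. The tests were tried on simulated counts. Those for age held no difference between platforms or pools, unlike the data, and so do not describe the age test on these pools.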

Additional observations from a re-analysis of the deposited data

How the results depend on the processing

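The age results stayed at 0 called members under every alternative run in whole pools, unmarked, cycling and stem marker high cells, and for the interaction. Only directions could move. Without the block 0 genes were called, of 13555 in whole pools, 12984 in unmarked, 11367 in cycling and 11878 in stem marker high cells. There 0 members is no result about the members. With all pools and the block kept, the alternatives called 74 to 774 genes in whole pools and 203 to 1044 in unmarked cells. They called 31 to 279 in cycling cells, 40 to 410 in stem marker high cells and 60 to 238 for the interaction. With 2 pools an age, leaving out a pool leaves 1, which is then assumed to vary like the others. The age fits with a pool left out also had no platform block, so they mix platform with age. Leaving out each pool, the member median ran from -0.38 to 0.025 in whole pools, -0.30 to 0.11 in unmarked cells, -0.23 to 0.039 in cycling cells, -0.10 to 0.24 in stem marker high cells and -0.077 to 0.020 for the interaction, and Myc from -0.78 to 0.18, -0.79 to 0.21, -0.67 to 0.32, -0.55 to 0.49 and -0.00078 to 0.23. Myc in stem marker high cells was -0.014 with DESeq2, -0.0090 with its size factors, -0.0079 with all barcodes, -0.075 with lower cutoffs and -0.059 with few immediate-early UMIs. The interaction median was -0.042 with no filter on low counts and -0.026 with higher cutoffs.

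Without the pool block, the class tests also took in the spread between pools. So run, 11 members were called in S phase, 2 in G2/M, 1 in G2/M against S phase and 18 in erythroid-marked cells. In the megakaryocyte, neutrophil, lymphoid, stem marker and Myc UMI comparisons 0 were called. Calls over all genes were 1193 of 11758 in S phase, 1699 of 11722 in G2/M and 222 of 10198 in G2/M against S phase. They were 1263 of 10805 in erythroid-marked cells, 127 of 10894 in neutrophil-marked cells and 4 of 10684 in the stem marker comparison. In megakaryocyte-marked cells they were 39 of 10788, in lymphoid-marked cells 90 of 10746 and for cells with a Myc UMI 1 of 11024. With all barcodes 34 were called in G2/M, 21 in G2/M against S phase and 20 in neutrophil-marked cells. Calls over all genes were then 6868 of 11962, 2748 of 10406 and 2187 of 11037. With few cycle marker UMIs 10 were called in erythroid-marked cells, where Wdr75 reversed to -0.14, and 15 in the stem marker comparison. Calls over all genes were 1062 of 9869 and 728 of 9478. In megakaryocyte-marked cells DESeq2 and no filter each called 1, library size alone 7, DESeq2 size factors 5 and higher cutoffs 6. Of 10788 genes DESeq2 called 335, library size alone 773 and DESeq2 size factors 774. No filter called 653 of 18426 and higher cutoffs 1045 of 10787. In neutrophil-marked cells no filter called 8, lower cutoffs 4 and higher cutoffs 22. Over all genes these called 1411 of 18426, 691 of 10860 and 2239 of 10905. In lymphoid-marked cells DESeq2, its size factors and lower cutoffs each called 0. Over all genes these called 228 of 10746, 404 of 10746 and 266 of 11158. For cells with a Myc UMI DESeq2 called 1, no filter 4 and thinning to 2000 UMIs 5. Over all genes these called 62 of 11024, 287 of 17912 and 160 of 10229. Within unmarked cells library size alone called 2 members and DESeq2 size factors 1. The main fit there called 0 members and 120 of 10416 genes. The calls over all genes under these 2 scalings are not given here. The cause was not tested for any of these, beyond the fewer cells in the settings that restrict cells.

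Leaving out each pool left 37 to 39 members called in S phase, 16 to 20 in G2/M and 31 to 35 in G2/M against S phase. It left 21 to 29 in erythroid-marked, 1 to 3 in megakaryocyte-marked, 7 to 9 in neutrophil-marked and 0 to 1 in lymphoid-marked cells. In the stem marker comparison it left 18 to 29, and for cells with a Myc UMI 0 to 6. Over all genes, of which 9866 to 12338 were tested, calls in these fits were 4710 to 5384 in S phase and 4961 to 5643 in G2/M. They were 1914 to 2535 in G2/M against S phase, 1774 to 2812 in erythroid-marked and 359 to 689 in megakaryocyte-marked cells. In neutrophil-marked cells they were 775 to 1491 and in lymphoid-marked cells 307 to 384. The stem marker comparison had 959 to 1865 and cells with a Myc UMI 97 to 201. Higher cutoffs for lymphoid-marked cells, and few cycle marker UMIs in neutrophil-marked and megakaryocyte-marked cells, left too few cells to run. The megakaryocyte, neutrophil and lymphoid classes held 13 to 39 cells a pool.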
